A study of Mus musculus with 4 samples.

Results

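The genes described here are 39 mouse genes of DNA replication and nucleotide synthesis, chosen by function and matched to the count table by Ensembl gene ID and symbol. They encode the factors that license replication origins, the replicative helicase, the polymerases and primase, the sliding clamp and its loader, the enzymes that join Okazaki fragments, the proteins that coat single-stranded DNA, the enzymes that make DNA precursors, and the E-type cyclins. All 39 were found among the 47729 gene IDs of the table, and all 39 were among the 13732 genes with enough reads to be tested. The lowest mean level over the 4 libraries was 9.78 CPM (the usual unit of depth-scaled read counts, here with TMM-scaled library sizes), that of Fen1. Fen1 had 335 to 403 reads in each library, so none of the genes passed the filter on low counts through a single group.

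The RNA came from CD4 T cells of the spleen of C57BL/6 mice, cultured toward induced regulatory T (iTreg) cells, which acquire the transcription factor Foxp3 in culture. Per the study's methods the cells were naive CD4 T cells activated with anti-CD3 and anti-CD28. All cultures received rhTGF-β (5 ng/mL), rhIL2 (100 U/mL) and antibodies that block IL4 and IFNγ (5 µg/mL each). The FeSO4 group was given ferrous sulfate at 50 µM for 4 days and the Mock group PBS for 4 days, with 2 libraries in each. Whole cultures were sequenced at a single time point, so the cells of a library were at mixed stages of the cell cycle. The study asked which genes iron supply changes in these cells.

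Replication starts when the origin recognition complex, Cdc6 and Cdt1 load the ring of Mcm2 to Mcm7 onto DNA, and Cdc45 and the GINS complex then turn that ring into an active helicase. Primase and polymerase alpha lay down primers, polymerases delta and epsilon extend them on the clamp Pcna, and Fen1 and Lig1 join the fragments of the lagging strand. Most of these genes are switched on by E2F transcription factors before S phase, so their RNA marks proliferating cells. Several of the proteins need iron: ribonucleotide reductase carries a di-iron centre in Rrm2, and iron-sulfur clusters have been described in the primase subunit Prim2 and in the catalytic subunits of polymerases delta and epsilon.

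Libraries held 35183187 to 40859178 reads on genes, and the 39 genes held 244069 to 259902 of them. The labelled cell type was checked against T cell markers. Cd3e, Cd4 and Il2ra were not called different, and Cd3d was called higher in FeSO4. Foxp3, the defining factor of Treg cells, was at 587 and 693 CPM in Mock and at 376 and 472 CPM in FeSO4 (log2 fold change -0.59, adjusted p = 0.000223). Markers of other cells were low. The summed level of 5 B cell genes was 2.53 to 3.48 CPM in Mock and 2.38 to 2.6 CPM in FeSO4, that of 5 myeloid genes 1.82 to 6.14 and 1.49 to 1.57 CPM, and that of 2 CD8 T cell genes 9.04 to 9.81 and 9.95 to 11 CPM. A pair of lists moved with the group: 6 erythroid genes summed to 20.9 to 26.2 CPM in Mock and 34.5 to 39.8 CPM in FeSO4, with 1 of 6 called higher (Hba-a1), and 3 NK genes summed to 0.641 to 1.1 and 2.25 to 4.46 CPM, with 1 of 3 called higher (Klrd1) and Ncr1 and Klrb1c at 0. The part of these cells in the results below was not tested.

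In FeSO4-treated cells, 15 of the 39 genes were higher and 0 were lower at an adjusted p under 0.05 in edgeR's quasi-likelihood test, against 10.9% higher and 9.17% lower of all genes tested (20% in either direction). The fold change was above 0 in 37 of the 39 genes, against 49.9% of all genes, although scaling by library size alone left it above 0 in 30. The changes were small. The median log2 fold change of the 39 genes was 0.16, or 11.6%, where that of all genes was 0.00, and the range ran from -0.11 (Pole) to 0.56 (Gins1). With scaling by library size alone their median was 0.093, where that of all genes was -0.066. Both FeSO4 libraries lay above both Mock libraries in 28 genes and below them in 1 (Pole), against 30.1% and 29.4% of all genes, and in the other 10 the groups overlapped. Without adjustment 22 genes had p under 0.05, against 32.3% of all genes. With the study's limits (unadjusted p under 0.05, log2 fold change of 0.5 or more in size) 1 of the 39 genes passed (Gins1), against 10.4% of all genes. RNA was measured in whole cultures, so a larger share of cells in S phase and more RNA per cycling cell cannot be told apart.

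Unscaled shares of reads were compared as well. The 39 genes together took 0.654% of gene reads in Mock replicate 1 (95% Wilson interval 0.651 to 0.656%) and 0.627% in Mock replicate 2 (0.625 to 0.63%). They took 0.694% in FeSO4 replicate 1 (0.691 to 0.696%) and 0.656% in FeSO4 replicate 2 (0.653 to 0.659%). FeSO4 replicate 1 was thus well above the other libraries on this measure, while the intervals of FeSO4 replicate 2 and Mock replicate 1 overlapped. The replicates of a group also differed in a shared direction: Mock replicate 2 was below Mock replicate 1 in 31 of 39 genes (median log2 ratio -0.06), and FeSO4 replicate 2 below FeSO4 replicate 1 in 35 of 39 (median -0.07). Between groups, FeSO4 replicate 1 was above Mock replicate 1 in 37 of 39 genes (median 0.18) and FeSO4 replicate 2 above Mock replicate 2 in 34 (median 0.13). Across the numbers, FeSO4 replicate 1 was above Mock replicate 2 in 36 genes (median 0.23) and FeSO4 replicate 2 above Mock replicate 1 in 30 (median 0.09).

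How many genes were called depended on the libraries and settings. Without FeSO4 replicate 1, 6 were called, and the calls lost were Orc6, Mcm3, Cdc45, Gins2, Pola1, Rfc4, Pcna, Tyms and Dut. Without Mock replicate 2, 9 were called, with Orc6, Mcm3, Cdc45, Gins2, Rfc4 and Pcna lost. Without FeSO4 replicate 2, 11 were called (Orc6, Cdc45, Gins2 and Prim1 lost), and without Mock replicate 1, 14 were called, of which 12 were among the 15 (Mcm3, Pola1 and Prim1 lost, Cdt1 and Pold2 gained). In each of these 4 fits Gins1, Rfc3, Pole2, Cdc6 and Ccne1 were called higher, and the fold change of 31 of the 39 genes stayed above 0. Over all 13732 genes the higher calls numbered 998, 926, 1155 and 1097 in the fits without FeSO4 replicate 1, Mock replicate 2, FeSO4 replicate 2 and Mock replicate 1, against 1491 with all libraries. Scaling by library size alone gave 8 calls, where 980 of all 13732 genes were called higher. Testing every gene with at least 1 count gave 1 (Gins1), where 524 of 22164 genes were called higher.

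**Figure D1:**
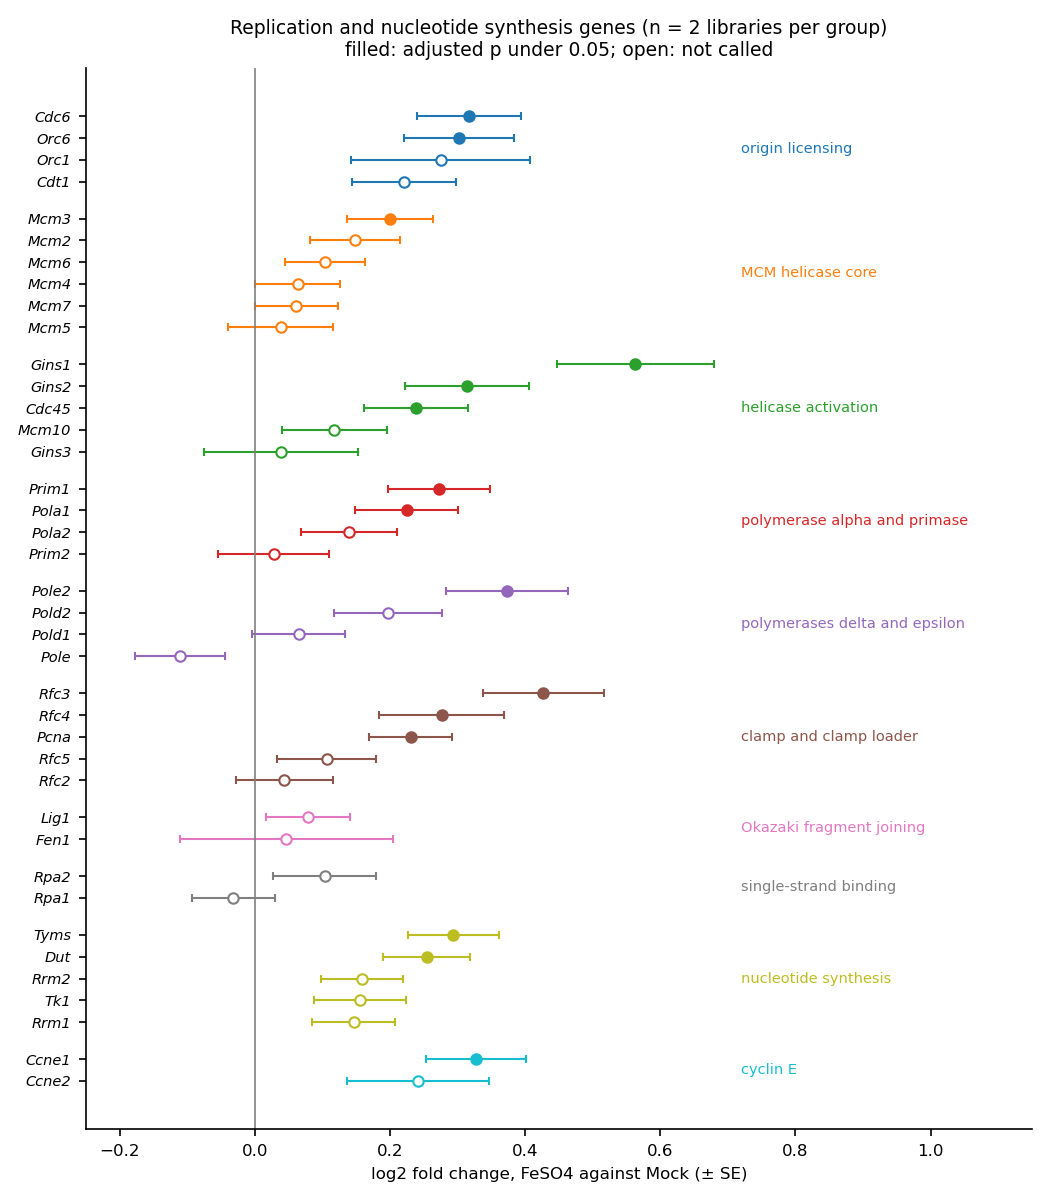
Log2 fold change of each of the 39 genes, FeSO4 against Mock (n = 2 libraries per group), grouped by role. Points are edgeR estimates and bars are ± 1 SE; filled points have an adjusted p under 0.05. All points but Pole and Rpa1 lie above 0 here; with scaling by library size alone 30 of 39 did.

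The plot of fold changes by role shows the highest median among origin licensing factors, at 0.29 over 4 genes, and the lowest among the single-strand binding proteins, at 0.04 over 2 genes. Medians were 0.28 for the 2 cyclin E genes, 0.24 for 5 helicase activation factors, 0.23 for the clamp and 4 loader subunits, 0.18 for 4 polymerase alpha and primase subunits, 0.16 for 5 nucleotide synthesis enzymes, 0.13 for 4 subunits of polymerases delta and epsilon, 0.08 for the 6 MCM genes and 0.06 for Fen1 and Lig1. The differences between roles were not tested.

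Origin licensing was led by Cdc6, the ATPase that loads the MCM ring, and by Orc6, the smallest subunit of the origin recognition complex. Cdc6 was at 51.7 and 51.3 CPM in Mock replicates 1 and 2 and at 64.5 and 63.8 CPM in FeSO4 replicates 1 and 2. The Mock values differed by under 1 CPM, as did the FeSO4 values, and the gap between the groups was far wider (log2 fold change 0.32 ± 0.08 SE, 24.6% higher, adjusted p = 0.0078). Orc6 was at 44.9 and 43.1 CPM in Mock and at 54.1 and 54.4 CPM in FeSO4, again with no overlap (0.30 ± 0.08, adjusted p = 0.0144). Cdt1, the partner of Cdc6 in loading, and Orc1, the largest subunit of the complex, were not called. Cdt1 had a log2 fold change of 0.22 and an adjusted p of 0.0535, at 110 and 94.6 CPM in Mock and at 121 and 117 CPM in FeSO4. With 1 library left out, its log2 fold change ran from 0.12 (without Mock replicate 2) to 0.32 (without Mock replicate 1). Orc1, at 12.9 to 17.6 CPM over the libraries, had a larger estimate with a wider error (0.27 ± 0.13, adjusted p = 0.163).

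The 6 subunits of the MCM ring, which assemble in equal numbers, did not all pass the test. Of the 6, 1 was called higher, against 10.9% of all genes. Mcm3 was called: it was at 338 and 336 CPM in Mock and at 406 and 368 CPM in FeSO4 (0.20 ± 0.06, 14.9% higher, adjusted p = 0.036). Its Mock libraries were nearly equal and its FeSO4 libraries differed by more, with replicate 1 the higher. The other 5 had log2 fold changes of 0.15 (Mcm2), 0.10 (Mcm6), 0.06 (Mcm4), 0.06 (Mcm7) and 0.04 (Mcm5), with adjusted p from 0.133 to 0.779. In Mcm2 and Mcm6 both FeSO4 libraries were still above both Mock libraries (30.1% of all genes), and in Mcm4, Mcm5 and Mcm7 the groups overlapped. Mcm5 varied most between replicates, at 424 and 387 CPM in Mock and at 454 and 378 CPM in FeSO4. Under scaling by library size alone the log2 fold changes of Mcm4, Mcm5 and Mcm7 were -0.002, -0.027 and -0.004. Reads of Mcm7 could also be lost or shared, since a stretch of the genome with no annotated gene matches 78.2% of its transcript at 97.52% identity and its exons share 321 bases with Ap4m1 on the opposite strand.

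Helicase activation held the gene with the largest change. Gins1, a subunit of the GINS complex that binds the MCM ring, was at 15.5 and 16.2 CPM in Mock and at 24.9 and 22.0 CPM in FeSO4. The lower FeSO4 library was well above the higher Mock library, and the difference came to 47.7% (log2 fold change 0.56 ± 0.12, adjusted p = 0.0027). It was the 1 gene of the 39 called under all 14 settings of scaling, filter, test and left-out library that used the adjusted p. Gins2, another GINS subunit, was at 35.3 and 31.6 CPM in Mock and at 42.0 and 41.3 CPM in FeSO4 (0.31 ± 0.09, adjusted p = 0.0228). Its exons share 2758 bases with Gse1 on the opposite strand, and without a stated strand setting reads of the pair cannot be told apart. Gins3 did not follow: at 21.5 and 20.6 CPM in Mock and at 19.9 and 23.2 CPM in FeSO4 its groups overlapped (0.04 ± 0.11, adjusted p = 0.858). Cdc45, which completes the active helicase, was at 83.9 and 74.4 CPM in Mock and at 95.1 and 91.7 CPM in FeSO4 (0.24 ± 0.08, adjusted p = 0.0366). Mcm10, needed for the helicase to start unwinding, had a log2 fold change of 0.12 (adjusted p = 0.317).

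In polymerase alpha and primase, which make the primers, 1 subunit of each passed the test (10.9% of all genes were called higher). Prim1, the catalytic primase subunit, was at 66.8 and 68.1 CPM in Mock and at 78.2 and 84.7 CPM in FeSO4 (0.27 ± 0.08, adjusted p = 0.0172). Pola1, the catalytic subunit of polymerase alpha, was at 71.4 and 77.7 CPM in Mock and at 90.4 and 83.9 CPM in FeSO4 (0.22 ± 0.08, adjusted p = 0.0474). In both genes both FeSO4 libraries were above both Mock libraries (30.1% of all genes), and Pola1 lay close to the threshold. The accessory subunit Pola2 had a log2 fold change of 0.14 (adjusted p = 0.187), with both FeSO4 libraries above both Mock libraries.

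Polymerases delta and epsilon divided by subunit. Pole2, an accessory subunit of polymerase epsilon that lies at the helicase, was at 30.4 and 29.8 CPM in Mock and at 38.6 and 39.3 CPM in FeSO4. The replicates of each group differed by under 1 CPM, and the difference was 29.5% (0.37 ± 0.09, adjusted p = 0.00753). Pold2, an accessory subunit of polymerase delta, had a log2 fold change of 0.20 and an adjusted p of 0.0949. With 1 library left out, its log2 fold change ran from 0.11 (without Mock replicate 2) to 0.28 (without Mock replicate 1). The catalytic subunits Pold1 and Pole were not called, and Pole was the gene with the lowest fold change of the 39. Pold1 and Pole have longer exons (4860 and 9590 bases) than Pole2 and Pold2 (1695 and 1896), and over all genes fold change fell with length, as given below.

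Clamp and loader genes were called higher in 3 of 5 cases, against 10.9% of all genes. Rfc3, a subunit of the loader that opens the clamp, was at 38.5 and 38.4 CPM in Mock and at 55.3 and 48.1 CPM in FeSO4. The Mock libraries were nearly equal, both FeSO4 libraries were above them, and the difference was 34.5% (0.43 ± 0.09, adjusted p = 0.00303). Rfc4, another loader subunit, was at 45.1 and 40.9 CPM in Mock and at 56.0 and 48.3 CPM in FeSO4 (0.28 ± 0.09, adjusted p = 0.0434). Pcna, the clamp, was at 618 and 571 CPM in Mock and at 709 and 685 CPM in FeSO4 (0.23 ± 0.06, 17.3% higher, adjusted p = 0.0137). A processed copy, Pcna-ps2, matches 82.3% of its transcript at 99.28% identity, so the reads of Pcna may be under-counted to an unknown degree. The loader subunits Rfc5 and Rfc2 had log2 fold changes of 0.11 and 0.04 (adjusted p of 0.34 and 0.725).

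Neither gene of Okazaki fragment joining and neither gene of single-strand binding passed the test. Over all genes 10.9% were called higher, so no call among so few genes lies near that share. Lig1, the ligase of the lagging strand, had a log2 fold change of 0.08 (adjusted p = 0.411), and Fen1, the flap nuclease, had 0.05 with the widest error of the 39 genes (SE 0.16). Fen1 shares 1909 exon bases with Gm10143 on the opposite strand. Rpa2 had a log2 fold change of 0.10 (adjusted p = 0.376). Rpa1, the largest subunit of the protein that coats single-stranded DNA, was at 411 and 403 CPM in Mock and at 412 and 384 CPM in FeSO4. FeSO4 replicate 1 was level with Mock replicate 1 and FeSO4 replicate 2 was the lowest library, which gave -0.03 ± 0.06 (95% interval -0.16 to 0.10, adjusted p = 0.766).

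All 5 enzymes of nucleotide synthesis had both FeSO4 libraries above both Mock libraries (30.1% of all genes did), and 2 were called higher (10.9% of all genes). Tyms, the enzyme that makes thymidylate, was at 123 and 121 CPM in Mock and at 155 and 145 CPM in FeSO4 (0.29 ± 0.07, 22.6% higher, adjusted p = 0.00534). Dut, which removes dUTP and thereby supplies the substrate of Tyms, was at 194 and 189 CPM in Mock and at 237 and 221 CPM in FeSO4 (0.25 ± 0.06, 19.3% higher, adjusted p = 0.0101). In both, the gap between the groups exceeded the distance between replicates. The ribonucleotide reductase subunits Rrm1 and Rrm2 and the thymidine salvage kinase Tk1 had log2 fold changes of 0.15, 0.16 and 0.16, with adjusted p of 0.106, 0.0778 and 0.121. A processed copy, Gm6091, matches 80.5% of the Tk1 transcript at 96.02% identity.

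Of the E-type cyclins, which bring cells into S phase, Ccne1 was at 69.6 and 66.1 CPM in Mock and at 87.3 and 83.0 CPM in FeSO4. The groups were well apart, with a difference of 25.5% (0.33 ± 0.07, adjusted p = 0.00503). Ccne2 was at 24.5 and 27.3 CPM in Mock and at 32.7 and 28.7 CPM in FeSO4, a difference of 0.24 ± 0.10 that was not called (adjusted p = 0.119).

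**Figure D2:**
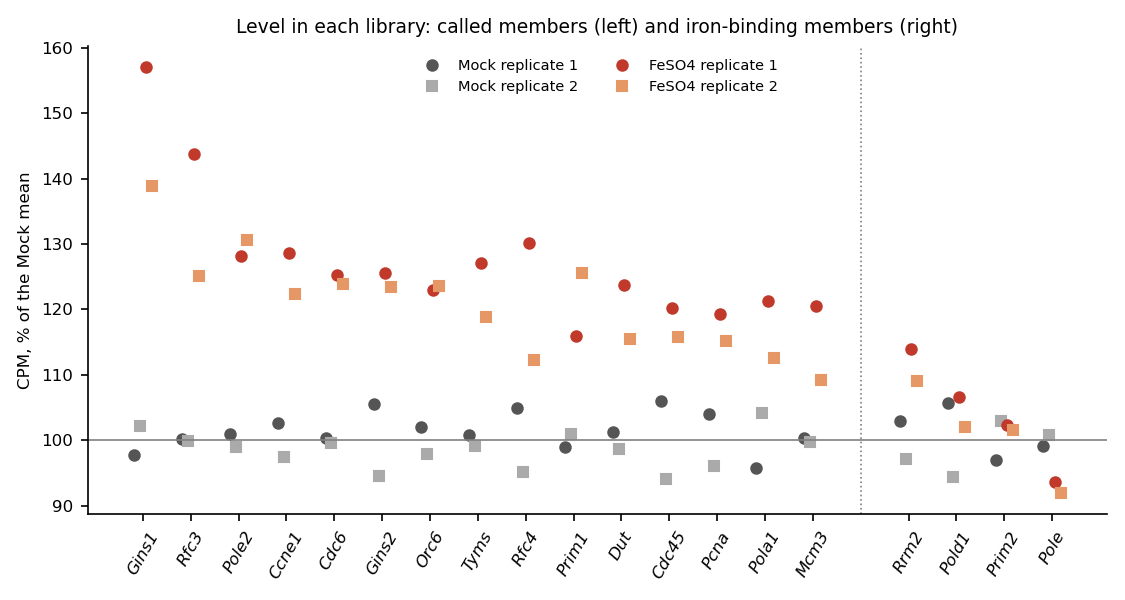
CPM in each library as a percent of the gene's Mock mean, for the 15 genes called higher (left, by fold change) and the 4 genes of iron-binding proteins (right). Each symbol is 1 library. In the called genes both FeSO4 symbols lie above both Mock symbols; Pold1 and Prim2 overlap, and Pole is below.

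The 4 genes whose proteins are known to bind iron were not among those called, as the plot of levels by library shows on its right side. Over all genes 10.9% were called higher and 20% in either direction, so no call among 4 genes lies near that share. Rrm2, the di-iron subunit of ribonucleotide reductase, was at 482 and 455 CPM in Mock and at 534 and 511 CPM in FeSO4. The groups did not overlap, and the log2 fold change was 0.16 with a 95% interval of 0.03 to 0.29 (adjusted p = 0.0778). With the replicate number as a block Rrm2 was called (adjusted p = 0.0264), though no source used here ties the numbers to the pairs. Pold1, the catalytic subunit of polymerase delta, was at 206 and 184 CPM in Mock and at 208 and 199 CPM in FeSO4, with the Mock values wide apart (0.07, interval -0.08 to 0.21, adjusted p = 0.556). Prim2, the large primase subunit, was at 46.6 and 49.5 CPM in Mock and at 49.2 and 48.8 CPM in FeSO4, and both FeSO4 libraries lay between the Mock libraries (0.03, interval -0.14 to 0.20, adjusted p = 0.853). Pole, the catalytic subunit of polymerase epsilon, was at 123 and 125 CPM in Mock and at 116 and 114 CPM in FeSO4. It was the gene of the 39 in which both FeSO4 libraries were below both Mock libraries, yet the interval included 0 (-0.11, interval -0.25 to 0.03, adjusted p = 0.272). The upper ends of the intervals of Pold1, Prim2 and Pole were 0.21, 0.20 and 0.03 in this fit, with 2 libraries per group. They depend on the fit: with the length correction described below, Pole was at 0.002 ± 0.06 SE.

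**Figure D3:**
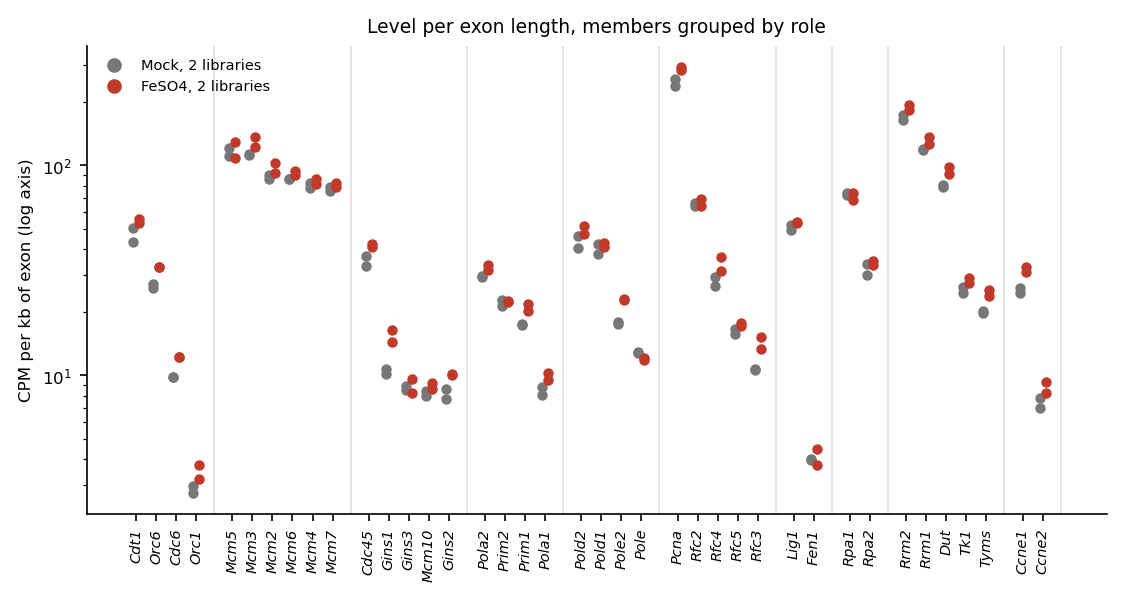
Level of each gene per kilobase of exon (CPM per kb, log axis) in the 2 Mock and 2 FeSO4 libraries, grouped by role, each symbol 1 library. Pcna and the ribonucleotide reductase subunits lie highest and Orc1 lowest; the distance between genes is far larger than that between groups.

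Levels of different genes were compared per kilobase of exon. In Mock cells Pcna led with a mean of 248 CPM per kb, followed by Rrm2 at 169, Rrm1 at 119, Mcm5 at 116 and Mcm3 at 113 CPM per kb. The other MCM subunits lay between 77.4 (Mcm7) and 88.3 (Mcm2), and Dut was at 79.5 CPM per kb. At the other end were Orc1 at 2.87, Fen1 at 3.97, Ccne2 at 7.41, Gins2 at 8.17, Mcm10 at 8.19, Pola1 at 8.46 and Gins3 at 8.72 CPM per kb. Of the 2422 exon bases of Fen1 1909 are shared with Gm10143, and of the 4097 of Gins2 2758 with Gse1. The full length was the divisor, so these 2 levels are too low if reads in shared exons were not counted. The plot of levels per length shows that the genes called higher were found from low levels (Pola1, mean 8.46 CPM per kb in Mock and 9.89 in FeSO4) to the highest (Pcna, 248 and 290).

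**Figure D4:**
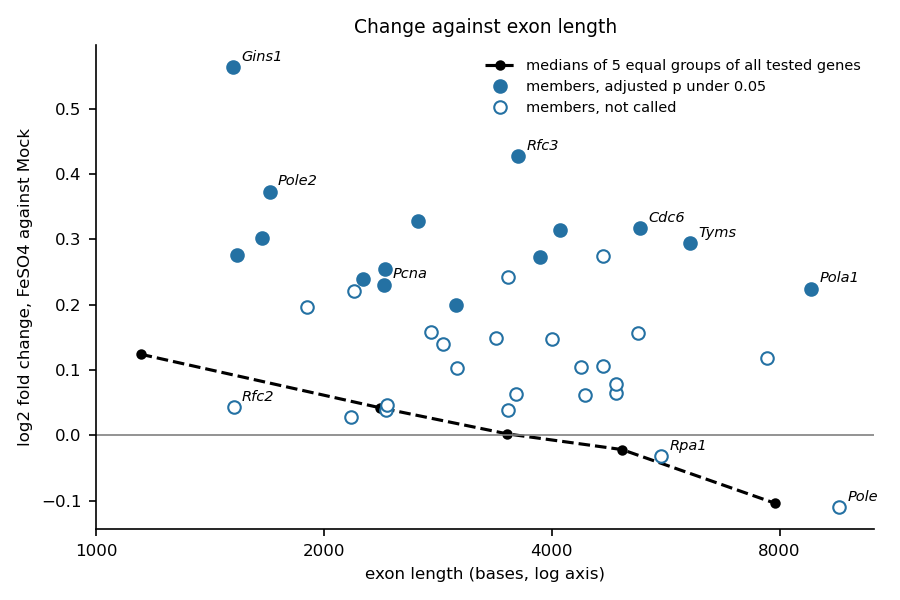
Log2 fold change, FeSO4 against Mock, against exon length (bases, log axis). Blue points are the 39 genes, filled where the adjusted p is under 0.05; black points joined by a dashed line are medians of 5 equal groups of all tested genes with a length. The line falls from 0.124 to -0.104 with length, and most blue points lie above it.

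Fold change went with exon length. Over all genes tested with a known length, the median log2 fold change went from 0.124 in the shortest of 5 equal groups to -0.104 in the longest. Among the 39 genes, the 13 shortest (1516 to 2422 bases) had a median of 0.23 with 7 called, the 13 of middle length 0.16 with 5 called, and the 13 longest (4366 to 9590 bases) 0.11 with 3 called. Over all genes the share called higher was 15.3% in the shortest of the 5 groups and 6.58% in the longest. Across the 39 genes, which share the same 4 libraries, Pearson's r with the log of length was -0.34 and Spearman's rho -0.22. Pole, at 9590 bases, was the longest gene, and Gins1, at 1516 bases, the shortest. Fitted with a correction for length that was added after seeing the data, 12 of the 15 calls were kept, those of Orc6 (0.21, adjusted p = 0.0664), Cdc45 (0.185, adjusted p = 0.0731) and Rfc4 (0.176, adjusted p = 0.17) were lost, 36 of 39 fold changes were above 0, and those of Pole and Rpa1 were both 0.002. What part length has in the fold changes was not tested further.

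The start regions of the genes were read for the E2F words TTTGGCGC, TTTCCCGC, TTTCGCGC and TTTGCCGC on both strands, where overlapping words count separately. RefSeq windows of 250 bases before to 50 after a start (GRCm38.p6) were matched for 32 of the 39 genes, in 37 windows. Such a word was in 13 of 37 windows (35.1%), against 2.26% of all 32851 windows and 4.07% of the 11085 windows of tested genes. It was in 5 of 13 windows of genes called higher (38.5%) and in 8 of 24 windows of genes not called (33.3%). The 13 windows came from 13 genes, but the 24 came from 19 genes, some with several windows. Counted by gene, the word was in 5 of 13 genes called higher and in 8 of 19 not called. The order of the shares thus reversed, and these counts show no higher share in the called genes. The word CCAAT, on either strand, was in 54.1% of the windows, against 37.4% of all. Shown here are windows of the called genes Rfc3, Cdc6 and Mcm3 and of the genes Mcm5 and Mcm6, which were not called, to set their words side by side. The windows lie, for Rfc3 at chr5:151651159-151651458 on the minus strand, for Cdc6 at chr11:98907901-98908200 on the plus strand, for Mcm3 at chr1:20820263-20820562 on the minus strand, for Mcm5 at chr8:75109259-75109558 on the plus strand and for Mcm6 at chr1:128359656-128359955 on the minus strand. Each is printed in the direction of its gene with the E2F words in capitals.
Rfc3: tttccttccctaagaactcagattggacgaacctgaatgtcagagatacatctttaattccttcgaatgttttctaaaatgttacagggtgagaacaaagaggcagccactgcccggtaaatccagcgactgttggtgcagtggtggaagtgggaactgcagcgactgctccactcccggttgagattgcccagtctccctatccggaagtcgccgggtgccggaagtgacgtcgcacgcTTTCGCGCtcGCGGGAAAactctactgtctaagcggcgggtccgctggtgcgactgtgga
Cdc6: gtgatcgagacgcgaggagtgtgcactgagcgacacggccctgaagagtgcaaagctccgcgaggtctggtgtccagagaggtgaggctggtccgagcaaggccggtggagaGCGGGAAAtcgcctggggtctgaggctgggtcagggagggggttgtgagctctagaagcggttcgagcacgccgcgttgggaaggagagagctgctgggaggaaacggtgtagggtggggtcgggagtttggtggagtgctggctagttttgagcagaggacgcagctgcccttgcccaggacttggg
Mcm3: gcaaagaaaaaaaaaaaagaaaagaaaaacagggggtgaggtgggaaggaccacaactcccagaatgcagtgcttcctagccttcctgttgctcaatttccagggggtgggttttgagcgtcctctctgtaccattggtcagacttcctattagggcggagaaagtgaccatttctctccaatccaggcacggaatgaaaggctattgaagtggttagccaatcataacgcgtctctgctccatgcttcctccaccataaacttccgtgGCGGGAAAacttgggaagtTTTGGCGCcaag
Mcm5: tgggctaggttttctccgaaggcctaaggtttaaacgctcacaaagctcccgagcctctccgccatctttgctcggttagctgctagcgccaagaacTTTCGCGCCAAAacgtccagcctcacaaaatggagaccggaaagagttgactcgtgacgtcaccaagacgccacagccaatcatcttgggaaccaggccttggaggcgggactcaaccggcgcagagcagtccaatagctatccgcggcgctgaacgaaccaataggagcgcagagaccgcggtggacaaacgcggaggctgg
Mcm6: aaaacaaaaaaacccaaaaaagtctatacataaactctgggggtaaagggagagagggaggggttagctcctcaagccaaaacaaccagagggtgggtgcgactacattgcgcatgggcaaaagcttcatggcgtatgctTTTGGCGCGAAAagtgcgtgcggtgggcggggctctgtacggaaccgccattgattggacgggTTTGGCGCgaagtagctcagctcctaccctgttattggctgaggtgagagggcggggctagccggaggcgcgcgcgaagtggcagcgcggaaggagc
In Mcm5 and Mcm6 a pair of words on opposite strands overlaps, so that the capitals run on. Rfc3 has its words around the start, and Mcm3 has them after it. Words and log2 fold change were 2 and 0.43 in Rfc3, 1 and 0.32 in Cdc6, and 2 and 0.20 in Mcm3. They were 2 and 0.04 in Mcm5 and 3 and 0.10 in Mcm6. The Cdc6 window lies inside the gene, whose first base is 98907709, so bases before that start were not read. A relation between words and fold change was not tested. A matching word is a description of the sequence and no measurement of binding.

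Other genes of the same process were taken from 5 lists set by function. Of 35 other replication factors 5 were higher (14.3%, near the 10.9% of all genes) and 0 lower, with a median log2 fold change of 0.10. They included Tipin, a fork protection factor (0.40 ± 0.07, adjusted p = 0.000585), Rpa3, the small subunit of the single-strand binding protein (0.45 ± 0.09, adjusted p = 0.0022), Gmnn, the inhibitor of Cdt1 (0.34 ± 0.07, adjusted p = 0.00348), and Dbf4, the activator of the kinase that fires origins (0.25 ± 0.07, adjusted p = 0.0163). Rpa3 was thus called where Rpa1 and Rpa2 were not. Dbf4 lost its call without Mock replicate 1 and without FeSO4 replicate 2, and 3 genes of the list were called without FeSO4 replicate 2. The iron-sulfur nuclease-helicase Dna2 had a log2 fold change of -0.19 and was not called (adjusted p = 0.176).

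Of 31 other nucleotide synthesis genes 8 were higher and 2 lower, against 10.9% and 9.17% of all genes, with a median of 0.12. The purine salvage enzyme Hprt was higher (0.35 ± 0.06, adjusted p = 0.00112), as was Prps1, which makes the ribose donor of nucleotides (0.35 ± 0.08, adjusted p = 0.00329). Cad, the enzyme that opens pyrimidine synthesis, went the other way: it was at 304 and 318 CPM in Mock and at 242 and 212 CPM in FeSO4 (-0.45 ± 0.07, adjusted p = 0.000225). Tyms and Dut, which act later on pyrimidines, were higher in the same libraries in which Cad was lower. Rrm2b, the other di-iron subunit of ribonucleotide reductase, had a log2 fold change of -0.12 (adjusted p = 0.55). Called genes in this list numbered 5 without Mock replicate 1 and 4 without FeSO4 replicate 1.

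Of 27 S phase regulators 3 were higher (11.1%, against 10.9% of all genes) and 2 lower, with a median of 0.09, so the share called higher was at the background. The checkpoint kinase Chek1 (0.37 ± 0.09, adjusted p = 0.00975) and the E2F partner Tfdp1 (0.20 ± 0.07, adjusted p = 0.0366) were higher, and the E2F partner Tfdp2 (-0.47 ± 0.08, adjusted p = 0.000986) and the E2F-repressing pocket protein Rbl2 (-0.26 ± 0.07, adjusted p = 0.0193) were lower. The 6 E2F genes of the list were not called, with adjusted p from 0.222 to 0.966. Their log2 fold changes were 0.10 for E2f1, 0.08 for E2f2, 0.01 for E2f3, 0.07 for E2f4, -0.07 for E2f7 and 0.13 for E2f8. Upper quartile or library-size scaling made that of E2f3 negative. With 1 library left out the sign changed in E2f1 (-0.044 to 0.248), E2f3 (-0.081 to 0.096) and E2f7 (-0.204 to 0.058). The length correction also made that of E2f7 positive (0.034). With 1 library left out, 2 (without FeSO4 replicate 1), 3 (without Mock replicate 2, and without FeSO4 replicate 2) or 6 (without Mock replicate 1) of the list were called. Chek1 lost its call without FeSO4 replicate 1, Tfdp1 without FeSO4 replicate 1 or Mock replicate 2, and Rbl2 without either FeSO4 library or Mock replicate 2.

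Genes of chromatin at the fork and of mitosis were called higher in 6 of 15 and in 12 of 25 cases, against 10.9% of all genes, with 0 lower in either list and medians of 0.18 and 0.19. At the fork these included the histone chaperone Nasp (0.40), the remodeller Hells (0.41), the histone acetyltransferase Hat1 (0.36) and the histone mRNA-binding protein Slbp (0.29), with adjusted p from 0.000638 to 0.004. In mitosis they included the cyclin Ccnb1 (0.39), the ubiquitin-conjugating enzyme Ube2c (0.36), the spindle checkpoint protein Mad2l1 (0.33) and the kinase Cdk1 (0.33), with adjusted p from 0.000359 to 0.00189. Mitotic calls numbered 5 without Mock replicate 2, 5 without FeSO4 replicate 1 and 6 without FeSO4 replicate 2, while upper quartile scaling gave 6 and library size alone 4.

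**Figure D5:**
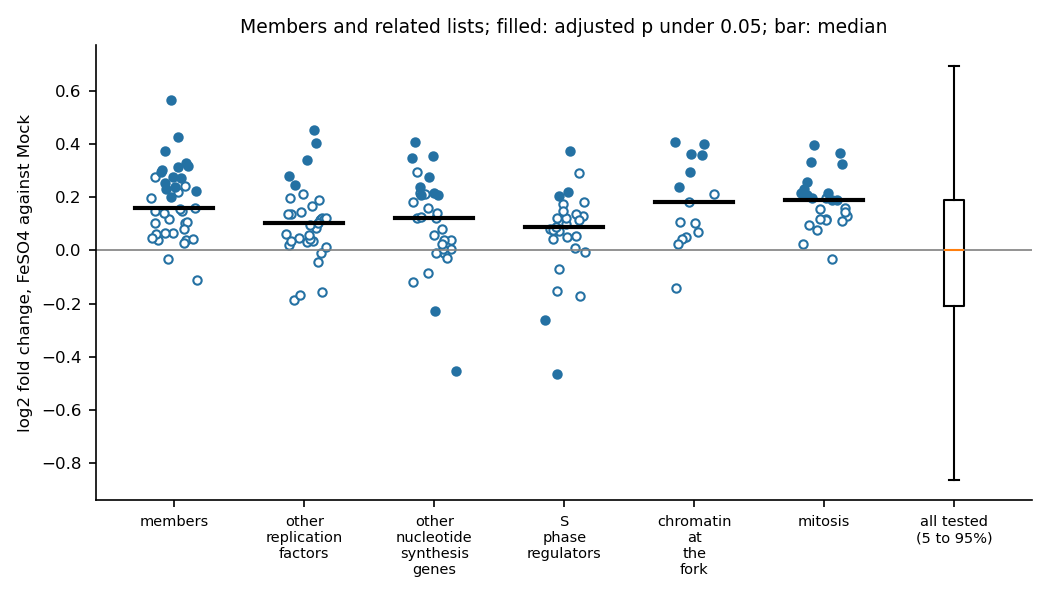
Log2 fold change, FeSO4 against Mock, of the 39 genes (members) and of the 5 related lists, each point 1 gene, filled where the adjusted p is under 0.05, with bars at the medians. The box on the right spans the middle 50% of all tested genes, with whiskers from the 5th to the 95th percentile; the medians of the lists lie between 0.09 and 0.19 and that of all genes at 0.00.

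The plot of related lists shows that the 39 genes, at a median of 0.16, lay between the S phase regulators at 0.09 and the mitotic genes at 0.19. Of the 39 genes 38.5% were called higher, against 14.3% of the other replication factors, 25.8% of the other nucleotide synthesis genes, 11.1% of the S phase regulators, 40% of the fork chromatin genes, 48% of the mitotic genes and 10.9% of all genes tested. Differences between the lists were not tested. Without the 5 genes that have large overlaps or near-complete copies (Gins2, Fen1, Mcm7, Pcna and Tk1), 13 of 34 were called higher, with a median of 0.18.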

How the data were processed

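The authors deposited raw read counts per Ensembl gene, with 1 column per library and no normalization. The submitters' processing notes name Trim Galore 0.6.7, STAR 2.7.9a, featureCounts and the build mm10, while the study's methods name STAR, mm9 and DESeq. The annotation and strand setting are not given in the sources used here. The 5 rows of unassigned reads (15.9 to 17.3% of reads) entered neither library sizes nor tests.

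Symbols were matched by Ensembl ID (32799 of 47729 IDs). The filter was edgeR's filterByExpr with the group (99.95% of gene reads); the genes were scaled by TMM and tested, FeSO4 against Mock, with the quasi-likelihood test of edgeR 4.0.16 in R 4.3.3, with Benjamini-Hochberg adjustment over all 13732 genes and an adjusted p under 0.05 as the call. CPM used the scaled library sizes, and 3 reads, the most that a count of 0 leaves possible, came to 0.0717 to 0.0876 CPM. Intervals and limits cover counting error only, save those of fold changes, which are 95% t intervals from edgeR. Groups came from the labels. The methods name 2 sample pairs, from 2 separate experiments, without saying which libraries form a pair, and p-values measure the spread between these libraries. The replicates of a group differed beyond sampling noise (chi-square per degree of freedom 11.3 in Mock and 9.02 in FeSO4).

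Exon lengths, overlaps and copies (at least 200 matching bases at 95% identity or more) were taken from GENCODE M1 on NCBIM37, and promoter windows from RefSeq on GRCm38.p6. The table's IDs reach beyond GENCODE M1, so lengths are approximate. Of the 32 listed other nucleotide synthesis genes 1, Nme2, with 2 IDs for its symbol, was left out.

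Values are given for every called gene, the genes of iron-binding proteins, genes with a negative fold change and the 4 genes with the smallest p of each related list, plus Dna2, Rrm2b and the E2F genes; values of further genes were chosen after they were seen, and some items are not reported here by name. The 39 genes and all lists were chosen with earlier results of these data known. Alternatives were other scalings and filters, DESeq2 1.42.0, limma-voom (limma 3.58.1), the replicate number as a block, the threshold of the study, a length correction and each library left out in turn.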

Additional observations from a re-analysis of the deposited data

How the results depend on the processing

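With 2 libraries per group the calls rest on a spread borrowed from all genes, and changes of under 0.20 on the log2 scale were not called among the 39 genes. Calls over all genes numbered 2750, against 828 when every gene with at least 1 count was tested, 1428 at the threshold of the study, and 1677 to 2157 with 1 library left out. Of the 39 genes 15 were called, against 14 with DESeq2's size factors, 11 with upper quartile scaling, 8 with library size only, 1 when every gene with at least 1 count was tested, 16 with at least 10 counts in every library, 13 with DESeq2, 13 with limma-voom, 1 at the threshold of the study and 6 to 14 with 1 library left out. Over all genes the higher calls were 980 of 13732 with library size only and 524 of 22164 with at least 1 count. The median log2 fold change of the 39 genes was 0.16, and 0.093 with library size only. Under that scaling the median of all genes shifted to -0.066 and the share of higher calls to 35.1% from 54.2%. A change of scaling moves all genes by nearly the same amount. The difference between the medians, 0.159 under both scalings, therefore could not change and is no check of the result.

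Calls in the related lists were, in order, 5 of other replication factors, 10 of other nucleotide synthesis genes, 5 of S phase regulators, 6 of chromatin at the fork and 12 of mitosis. Upper quartile scaling gave 3 S phase and 6 mitotic calls, and library size only 6 nucleotide and 4 mitotic calls. Testing every gene with at least 1 count gave 3 replication, 3 nucleotide, 1 S phase and 3 mitotic calls. At the threshold of the study each of the 5 lists had 0 calls. With 1 library left out there were 3 to 5 replication, 4 to 8 nucleotide, 2 to 6 S phase, 4 to 7 fork chromatin and 5 to 10 mitotic calls.

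Per the methods the samples formed 2 pairs, taken from 2 separate experiments, but no source used here says which libraries form a pair, and deviations of same-numbered libraries correlated at r = 0.0293. With the number as a block, 19 of the 39 genes were called, with all 15 kept, and 8 S phase regulators. The 4 gained were Cdt1 (adjusted p = 0.0138), the di-iron gene Rrm2 (0.0264), Pold2 (0.0283) and Rrm1 (0.0468).

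Library size only turned negative Prim2 (-0.037), Mcm4 (-0.002), Mcm5 (-0.027), Mcm7 (-0.004), Gins3 (-0.026), Rfc2 (-0.022), Fen1 (-0.018) and E2f3 (-0.057), and upper quartile scaling E2f3 (-0.01). The length correction gave -0.032 for Prim2, -0.008 for Gins3, -0.059 for Rfc2, 0.002 for Pole, 0.002 for Rpa1 and 0.034 for E2f7. With 1 library left out the sign changed in Prim2 (-0.025 to 0.073), Pold1 (-0.015 to 0.139), Mcm5 (-0.099 to 0.164), Gins3 (-0.079 to 0.142), Rfc2 (-0.016 to 0.101), Fen1 (-0.087 to 0.176), Rpa1 (-0.084 to 0.018), Rrm2b (-0.246 to 0.011), E2f1 (-0.044 to 0.248), E2f3 (-0.081 to 0.096) and E2f7 (-0.204 to 0.058). Of the other values of single genes 795 kept their direction and side of the threshold, 108 kept their direction but lost the call, and 7 gained it (Cdt1 also with at least 10 counts in every library and, like Pold2, without Mock replicate 1). The cause of these shifts was not tested.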
